A study of Mus musculus with 10 samples.

Results

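The genes described here are 7 secreted proteins and enzymes of the airway club cell: the secretoglobins Scgb1a1, Scgb3a1 and Scgb3a2, the carbonyl reductase Cbr2, the selenium-binding protein Selenbp1, haptoglobin (Hp) and chondroadherin (Chad). They were taken by symbol from a deposited table of RNA-seq counts, in which all 7 of them have a row among 22457 genes. The RNA came from mouse tracheal organoids, multicellular structures grown in Matrigel from airway basal cells, from which the surface epithelium renews itself. One group came from mice labelled Ctrl and the other from mice labelled M3-CKO, named in the series title as a Mettl3 knockout, and each group has 3 RNA-seq libraries from organoids harvested on day 14. Mettl3 is the catalytic subunit of the enzyme complex that places N6-methyladenosine on messenger RNA. All organoids shared a medium with epidermal growth factor, retinoic acid, bovine pituitary extract, a TGF-beta receptor inhibitor (A83-01) and a BMP receptor inhibitor (DMH-1), and for differentiation a serum-free medium without these 2 inhibitors. The sources used here do not give the driver of the deletion, the deleted part of Mettl3, the mice's strain, age or sex, or whether a library is 1 animal or a pool. The 4 MeRIP libraries of the series were not analysed here.

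Club cells are the secretory cells of the conducting airways. They arise from basal cells under Notch signalling, release secretoglobins and other defence proteins into the airway fluid, and metabolise inhaled chemicals. Secretoglobins are small secreted proteins that pair into disulfide-linked dimers. Scgb1a1, also called CC10 or CCSP, is the classical club cell protein, and Scgb3a1 and Scgb3a2 are relatives that are likewise secreted by airway epithelium.

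Total counts were 8906375 to 10485922 per library. Levels are given as CPM, counts scaled to library size with TMM, a correction for library composition. At 10 CPM a level rests on 89.1 to 104.9 counts. CPM values are not divided by gene length, so levels of different genes are not compared. Wherever 3 values of a group follow each other, they belong to its replicates 1, 2 and 3 in that order. The Ctrl libraries held 14.96, 17.0 and 18.9 CPM of Mettl3 itself, and the M3-CKO libraries 11.1, 10.3 and 9.87 CPM. Its groups did not overlap, and the difference (-0.70 on the log2 scale, SE 0.21) did not pass edgeR's quasi-likelihood test over all genes (adjusted p = 0.12). It passed with DESeq2 (adjusted p = 0.049) and in edgeR without M3-CKO replicate 3 (-0.67, adjusted p = 0.043). M3-CKO replicate 3 stood apart from M3-CKO replicates 1 and 2. Its Pearson r with them, across genes on log2 CPM, was 0.926 and 0.914, whereas replicates 1 and 2 had an r of 0.988 with each other and the Ctrl libraries 0.971 to 0.980. With the Ctrl libraries, r was 0.928 to 0.932 for M3-CKO replicate 3 and 0.931 to 0.941 for M3-CKO replicates 1 and 2. Genes are not independent replicates, so r only describes these libraries. Values without M3-CKO replicate 3 are therefore given for each of the 7 genes, for the lists of other genes that had calls over all libraries, and for other named genes where leaving it out changed the call.

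Scgb1a1 was low in all Ctrl organoids and higher in every M3-CKO library. The Ctrl libraries held 5.57, 4.34 and 2.81 CPM, resting on 51, 41 and 25 counts. The M3-CKO libraries held 83.2, 37.5 and 358.5 CPM, from 862, 329 and 3525 counts. The groups did not overlap, and the lowest M3-CKO library lay well above the highest Ctrl library, although the 3 M3-CKO libraries also differed widely among themselves. The log2 fold change, M3-CKO against Ctrl, was 5.23 (SE 0.89), and Scgb1a1 rose by edgeR's quasi-likelihood test (Benjamini-Hochberg adjusted p = 0.033 over 13528 tested genes). With M3-CKO replicate 3 left out it was 3.83 (SE 0.38, adjusted p = 6.7e-04 by edgeR). The call did not hold in edgeR without M3-CKO replicate 1 (5.54, adjusted p = 0.10) or without Ctrl replicate 1, 2 or 3 (5.48, 5.24 and 5.00, adjusted p = 0.13, 0.15 and 0.17), nor with limma-voom (4.65, adjusted p = 0.091). In bulk RNA, more club cells and more Scgb1a1 RNA per cell cannot be told apart.

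In the related secretoglobin Scgb3a1 the groups overlapped, unlike those of Scgb1a1. Within M3-CKO, however, Scgb3a1 was highest in replicate 3 and lowest in replicate 2, as was Scgb1a1. Ctrl libraries had 116.1, 267.1 and 281.2 CPM, against 122.5, 69.7 and 979.4 CPM for M3-CKO. M3-CKO replicate 2 lay below all Ctrl libraries, replicate 1 within their range and replicate 3 above them. Its log2 fold change (0.82, SE 0.90, edgeR adjusted p = 0.67) had the opposite sign without M3-CKO replicate 3 (-1.21, SE 0.39, adjusted p = 0.053).

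Scgb3a2, a secretoglobin of the same subfamily, also had M3-CKO libraries on both sides of Ctrl. Ctrl libraries had 30.5, 30.2 and 37.3 CPM, against 22.7, 9.81 and 247.5 CPM for M3-CKO. M3-CKO replicates 1 and 2 lay below every Ctrl library and replicate 3 above every one. Over all libraries the log2 fold change was 1.52 (SE 1.02, edgeR adjusted p = 0.45), and it was -1.001 (SE 0.32, adjusted p = 0.051) without M3-CKO replicate 3. The table holds 2 more secretoglobin rows, Scgb1b30 and Scgb1c1, with at most 3 counts in any library, and neither was tested.

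Cbr2, an enzyme that reduces carbonyl compounds and is abundant in mouse airway epithelium, was steady in Ctrl and split in M3-CKO. Ctrl libraries had 3841, 3784 and 4001 CPM, against 1641, 1576 and 3998 CPM for M3-CKO. M3-CKO replicates 1 and 2 lay below all Ctrl libraries, and replicate 3 lay within their range. Over all libraries its log2 fold change was -0.69 (SE 0.37, edgeR adjusted p = 0.34). Without M3-CKO replicate 3 Cbr2 fell by 1.27 on the log2 scale (SE 0.14, edgeR adjusted p = 8.6e-04).

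Selenbp1, a selenium-binding protein with methanethiol oxidase activity, had 1681, 1414 and 1439 CPM in Ctrl. M3-CKO libraries had 454.2, 425.2 and 2068 CPM, so that replicates 1 and 2 lay below every Ctrl library and replicate 3 above every one. Its log2 fold change was -0.62 (SE 0.58, edgeR adjusted p = 0.60). Without M3-CKO replicate 3 Selenbp1 fell by 1.79 on the log2 scale (SE 0.14, edgeR adjusted p = 3.8e-04). Its near-identical copy Selenbp2 had 35 to 66 counts per library, and the sources used here do not say how reads matching both were counted, so the split between them is uncertain.

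Hp, the haemoglobin-binding acute phase protein that airway epithelium also makes, had its high value in a single library. Ctrl libraries had 37.1, 71.5 and 28.6 CPM, against 57.2, 63.7 and 774.9 CPM for M3-CKO. M3-CKO replicates 1 and 2 lay within the Ctrl range. Its log2 fold change was 2.71 (SE 1.02, edgeR adjusted p = 0.19), and 0.40 (SE 0.33, adjusted p = 0.42) without M3-CKO replicate 3.

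Chad, a leucine-rich repeat protein first known from cartilage, was near the limit of detection. Its counts were 5, 21 and 16 in Ctrl and 10, 10 and 18 in M3-CKO, or 0.546, 2.22 and 1.80 CPM against 0.966, 1.14 and 1.83 CPM. The groups overlapped, and a difference was not detectable at this depth (log2 fold change -0.21, SE 0.60, edgeR adjusted p = 0.88; -0.53, SE 0.67, adjusted p = 0.59 without M3-CKO replicate 3). Of 9 cartilage markers 6 had a row, Col2a1 among them, and all 6 stayed under 1 CPM in every library.

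**Figure D1:**
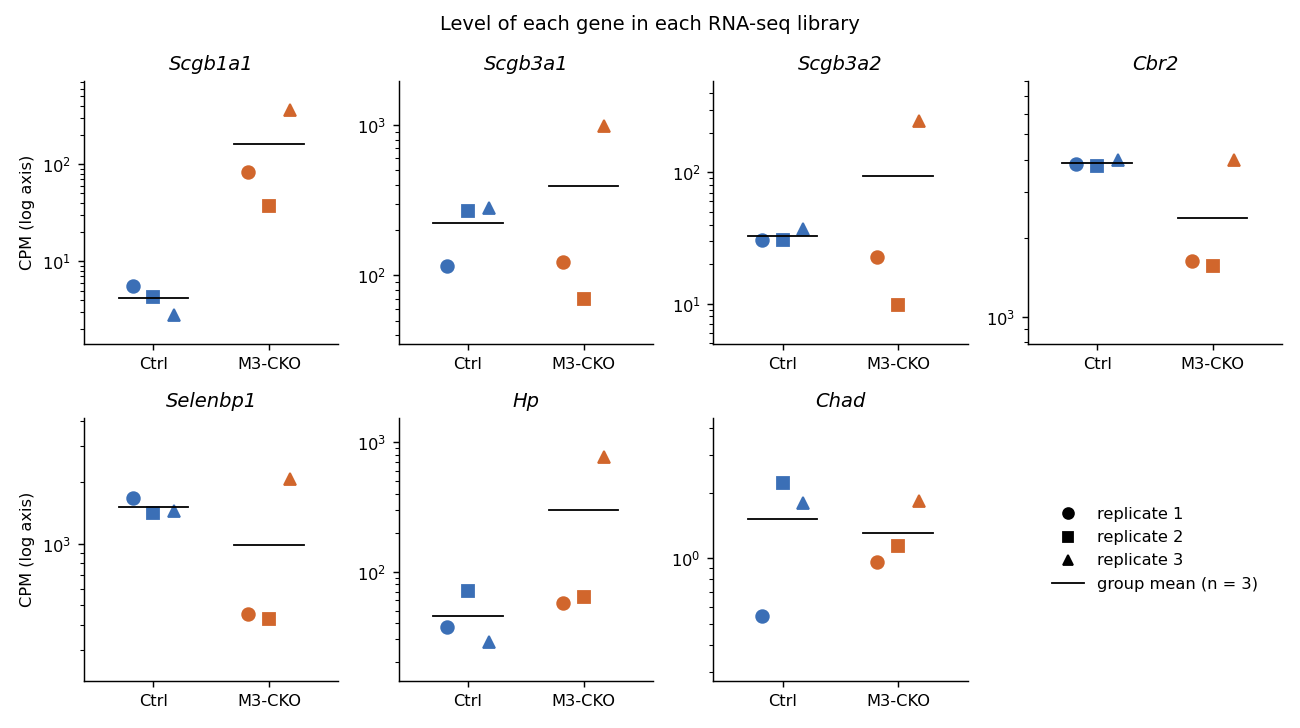
CPM on a log axis for each of the 7 genes, with 1 point per RNA-seq library (circle, square and triangle for replicates 1, 2 and 3) and a line at the mean of each group of 3. The M3-CKO points of Scgb1a1 all lie above the Ctrl points, while for Scgb3a2 and Selenbp1 M3-CKO replicates 1 and 2 lie below and replicate 3 above the Ctrl points.

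All 7 genes passed the low-count filter of edgeR. Scgb1a1 was the only 1 of the 7 that was called at an adjusted p under 0.05, where 2.91% of all 13528 tested genes were called (1.74% higher and 1.16% lower), and the only 1 whose groups did not overlap, which held for 27.1% of tested genes. DESeq2 also called 1 of the 7, Scgb1a1 (adjusted p = 2.6e-06), against 10.4% of tested genes (6.05% higher and 4.31% lower), and gave no p for Hp. Over the 7 genes 4 log2 fold changes were positive and 3 negative, with a median of 0.82, beside 0.02 over all tested genes. Without M3-CKO replicate 3 edgeR called 3 of the 7, Scgb1a1 higher and Cbr2 and Selenbp1 lower, where 25.0% of 13930 tested genes were called, and the median was -1.001 beside -0.02. That fit sets 3 Ctrl libraries against M3-CKO replicates 1 and 2, the closest pair of libraries in the table, so its p-values rest on a narrow spread.

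**Figure D2:**
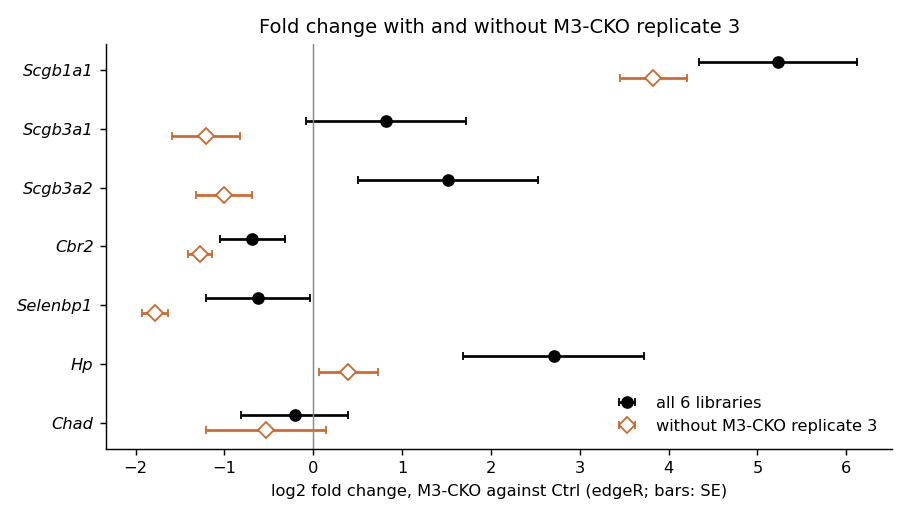
Log2 fold change of M3-CKO against Ctrl from edgeR for each gene, with bars of 1 SE, over all 6 libraries (filled) and without M3-CKO replicate 3 (open). Scgb1a1 stays far above 0 in both (5.23 and 3.83), and Scgb3a1 and Scgb3a2 change sign.

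The gap between Scgb1a1 and the other genes was compared directly within each library, as the log2 ratio of Scgb1a1 to each other gene (CPM plus 0.5). The ratio to Scgb3a1 was -4.26, -5.79 and -6.41 for Ctrl and -0.56, -0.88 and -1.45 for M3-CKO. The mean thus differed by 4.53 on the log2 scale, with SDs of 1.11 and 0.45 within the groups. The corresponding differences were 4.27 for Scgb3a2 (SDs 0.60 in Ctrl and 0.77 in M3-CKO), 5.34 for Cbr2 (SDs 0.48 and 0.95), 5.54 for Selenbp1 (SDs 0.36 and 0.58), 4.58 for Chad (SDs 1.08 and 1.37) and 2.78 for Hp (SDs 0.64 and 0.87). For all 6 genes the ratio was higher in each of the 3 M3-CKO libraries than in each of the 3 Ctrl libraries. Scgb1a1, whose groups did not overlap by itself, is part of every ratio, so the 6 are not independent results. The ratio was not taken to genes outside the 7, so no share over all genes stands beside it. The two-sided exact permutation p was 0.1 for each of the 6 pairs, also after adjustment over them, which is the smallest that 3 libraries against 3 allow, so none could pass 0.05. Without M3-CKO replicate 3 the 6 differences were between 3.11 and 5.39. That library was the lowest M3-CKO library in the ratio to Scgb3a2 (0.53, against 1.85 and 1.88 in replicates 1 and 2) and the highest in the ratio to Chad (7.27, against 5.84 and 4.53).

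**Figure D3:**
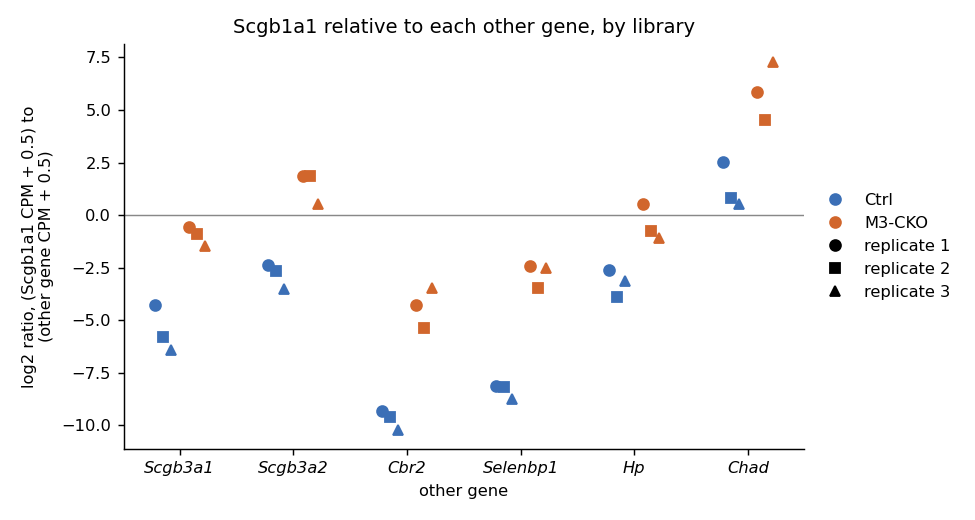
Log2 ratio of Scgb1a1 to each of the other 6 genes (CPM plus 0.5), with 1 point per library, Ctrl in blue and M3-CKO in orange. For each gene the 3 M3-CKO points lie above the 3 Ctrl points, replicate 3 (triangle) included; heights of different genes are not comparable because CPM is not divided by length.

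Within the M3-CKO group, replicate 3 exceeded replicates 1 and 2 in all 7 genes, whereas 45.4% of tested genes were higher in replicate 3 than in both of the others. On the log2(CPM plus 0.5) scale the excess over the mean of replicates 1 and 2 was 4.00 for Scgb3a2, 3.67 for Hp, 3.40 for Scgb3a1, 2.67 for Scgb1a1, 2.23 for Selenbp1, 1.31 for Cbr2 and 0.59 for Chad, with a median of 0.01 over all tested genes. Of 13528 tested genes, 8.93% had an excess of more than 2-fold, as did 6 of these 7. The excess of Scgb3a2 ranked 6, that of Hp 11 and that of Scgb3a1 16 among all tested genes. These are values of 1 library and have no test.

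The 7 genes together summed to 5712, 5573 and 5791 CPM in Ctrl and to 2382, 2183 and 8428 CPM in M3-CKO, mostly Cbr2 and Selenbp1 counts. The M3-CKO libraries lay on both sides of a narrow Ctrl range (two-sided exact permutation p = 0.4; the smallest possible is 0.1). The 3 secretoglobins alone summed to 152.1, 301.6 and 321.3 CPM in Ctrl and to 228.5, 117.1 and 1585 CPM in M3-CKO (two-sided exact permutation p = 0.9).

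Among 37 other genes known from club and airway secretory cells, all had a row and 33 were tested. Of these 33, 0 were called by edgeR with all 6 libraries, and DESeq2 called 2 higher and 2 lower. By edgeR 6 of the 33 had an unadjusted p under 0.05, as did 2774 of all 13528 tested genes. The median log2 fold change of the 33 was -0.32. Without M3-CKO replicate 3, 19 of the 33 were called lower and 3 higher by edgeR, where 11.3% of tested genes were called lower and 13.7% higher, and the median was -0.77. Cyp2f2, the cytochrome P450 of club cells that activates naphthalene, was at 2641 ± 139.9 CPM (SD, n = 3) in Ctrl and at 1418, 1068 and 2793 CPM in M3-CKO (log2 fold change -0.59, SE 0.34, edgeR adjusted p = 0.39; -1.09, adjusted p = 0.0031 without M3-CKO replicate 3). The secreted defence protein Bpifa1 was at 415.9 ± 182.2 CPM in Ctrl and at 215.3, 174.6 and 493.7 CPM in M3-CKO (-0.50, SE 0.46, edgeR adjusted p = 0.59; -1.10, adjusted p = 0.044 without replicate 3). The gel-forming mucin Muc5b was at 39.5 ± 29.2 CPM in Ctrl and at 63.9, 33.3 and 78.1 CPM in M3-CKO (0.57, SE 0.57, edgeR adjusted p = 0.63).

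The split seen in Scgb3a2 and Selenbp1 was found in 9 of these 33 genes: M3-CKO replicates 1 and 2 lay below every Ctrl library and replicate 3 above every one. Over all tested genes this held for 8.51%. Kcnj16, a potassium channel subunit, was the widest example, at 50.6 ± 15.2 CPM in Ctrl and at 6.18, 7.42 and 300.2 CPM in M3-CKO, and Lypd2, a surface protein of club cells, was at 88.9 ± 9.86 CPM in Ctrl and at 30.6, 22.6 and 147.7 CPM in M3-CKO (both chosen after their values were seen). Over all libraries their edgeR adjusted p was 0.70 and 0.77, and without M3-CKO replicate 3 both were called lower (-2.90 and -1.74, adjusted p = 7.8e-04 and 7.9e-04). The list was not uniform. The general epithelial keratin Krt8 ran the other way, at 378.6 ± 54.1 CPM in Ctrl and at 578.9, 585.0 and 251.2 CPM in M3-CKO, and the immunoglobulin receptor Pigr was above the Ctrl mean of 3770 ± 1134 CPM in all M3-CKO libraries, at 6725, 6727 and 5777 CPM (both also chosen after their values were seen; edgeR adjusted p = 0.63 and 0.14, and 0.017 and 0.031 without M3-CKO replicate 3).

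**Figure D4:**
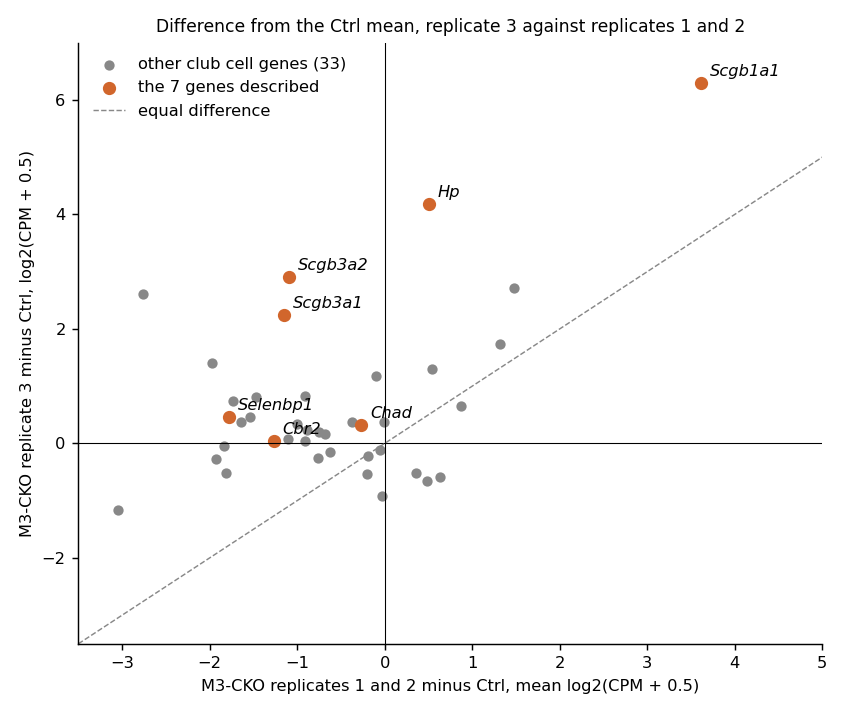
Difference from the Ctrl mean on the log2(CPM plus 0.5) scale, for M3-CKO replicates 1 and 2 (horizontal axis, mean of both) and for M3-CKO replicate 3 (vertical axis), with 1 point per gene. Of the 7 genes described, 5 lie left of 0 and above 0, as do 16 of the 33 other club cell genes. No share over all tested genes was taken for this position. Some of these points lie near 0 on an axis, such as Cbr2 (0.05, vertical) and Dcxr (-0.01, horizontal). M3-CKO replicates 1 and 2 below and replicate 3 above every Ctrl library held for 2 of the 7 and 9 of the 33. Over all tested genes that split held for 8.51%. Scgb1a1 lies farthest to the upper right.

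Transcription factors and Notch genes that direct secretory fate gave no edgeR call over all libraries. Of 30 listed, 27 were tested and 0 were called by edgeR, and the median log2 fold change was -0.22. By edgeR 6 of the 27 had an unadjusted p under 0.05, against 2774 of all 13528 tested genes. DESeq2 called 0 higher and 2 lower. With M3-CKO replicate 3 left out, edgeR called 1 higher and 6 lower of the 27, where 13.7% and 11.3% of tested genes were called. The riser was Rbpj, the DNA-binding partner of Notch (1.32, adjusted p = 6.8e-04), and the Notch target Hey1 (-0.75, adjusted p = 0.0098) and the ligand Jag2 (-0.76, adjusted p = 0.0059) were among the 6 that fell (these 3 were chosen after their values were seen). The other tested Notch genes of the list, Notch1, Notch2, Notch3, Jag1, Hes1 and Nrarp, were not called in that fit (log2 fold changes -0.32 to 0.32). Nkx2-1, a lung and airway factor known to act on the Scgb1a1 promoter, was at 225.6 ± 17.8 CPM (SD, n = 3) in Ctrl and at 258.1, 265.9 and 243.5 CPM in M3-CKO (0.18, SE 0.14, edgeR adjusted p = 0.52). Foxa2, a forkhead factor of secretory epithelium, was at 3.78 ± 1.72 CPM in Ctrl and at 3.09, 1.71 and 1.42 CPM in M3-CKO (-0.85, SE 0.51, edgeR adjusted p = 0.40). Replicate 3 exceeded both other M3-CKO libraries in 13 of the 27 tested, near the share over all tested genes.

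Relatives of the 7 genes were examined next. Of the carbonyl reductases, Cbr3 rose from 112.8 ± 34.6 CPM in Ctrl to 258.1, 246.8 and 300.9 CPM in M3-CKO (log2 fold change 1.25, SE 0.25, edgeR adjusted p = 0.046). Cbr1 was at 207.1 ± 48.1 CPM in Ctrl and 339.7, 370.5 and 533.1 CPM in M3-CKO (1.00, SE 0.25, edgeR adjusted p = 0.074; 0.77, adjusted p = 0.021 without M3-CKO replicate 3), so neither had the low M3-CKO replicates 1 and 2 of Cbr2. Of 5 tested paralogs Cbr3 alone was called over all libraries. When M3-CKO replicate 3 was left out, edgeR called 2 higher, where 13.7% of tested genes were called higher (Cbr3 at 1.16, adjusted p = 0.010). Chadl, the relative of Chad, was too low to be tested. Beside Hp, 13 of 21 listed acute phase genes and regulators were tested and 0 were called by edgeR, with a median log2 fold change of -0.51. By edgeR 5 of the 13 had an unadjusted p under 0.05, against 2774 of all 13528 tested genes. DESeq2 called 0 higher and 3 lower. For the fit lacking M3-CKO replicate 3, edgeR called 1 higher and 2 lower of the 13, where 13.7% and 11.3% of tested genes were called. In none of these 13 was M3-CKO replicate 3 above both other M3-CKO libraries. Lcn2, the iron-siderophore binding lipocalin, was at 733.8 ± 269.7 CPM in Ctrl and 407.5, 464.4 and 341.9 CPM in M3-CKO (-0.86, SE 0.27, edgeR adjusted p = 0.13), and Saa3 had at most 2 counts in any library.

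Markers of other airway cells also differed between the libraries, and their part in the club cell values was not tested. Of 14 tested basal cell genes 3 fell and 0 rose by edgeR, the keratins Krt15, Krt5 and Krt14, where 1.16% of all tested genes were called lower. The 14 summed to 3426 to 4176 CPM in Ctrl and to 1946, 1910 and 2892 CPM in M3-CKO. When M3-CKO replicate 3 was left out, 10 of the 14 fell and 1 rose, the integrin subunit Itga6 (0.73, adjusted p = 0.0051; picked with its values known), where 11.3% of tested genes were called lower and 13.7% higher. Of 11 tested hillock and squamous genes 2 fell, Krt4 and Sprr1a, where 1.16% of all tested genes were called lower. Without M3-CKO replicate 3, 5 of the 11 fell, where 11.3% of tested genes were called lower. The 12 hillock and squamous genes with a row summed to 2287 to 2506 CPM in Ctrl and to 1589, 1495 and 2260 CPM in M3-CKO. Among 6 tested goblet cell genes Gp2, a membrane glycoprotein, rose from 74.1 ± 18.8 CPM to 969.9, 490.0 and 269.1 CPM (edgeR adjusted p = 0.029), highest in replicate 1 where Scgb1a1 was not. Gp2 was the single goblet cell gene called, where 1.74% of all tested genes were called higher. Without M3-CKO replicate 3 edgeR called 2 higher and 1 lower of the 6, where 13.7% and 11.3% of tested genes were called. The airway mucin Muc5ac was at 3.16 ± 2.44 CPM in Ctrl and 4.54, 2.51 and 2.44 CPM in M3-CKO. Of 8 tested multiciliated cell genes 0 were called by edgeR (1 at an unadjusted p under 0.05, and DESeq2 called 1 higher). The 14 multiciliated cell genes with a row summed to 22.8 to 77.4 CPM in Ctrl and to 65.6 to 122.1 CPM in M3-CKO. Foxj1, their master regulator, was at 18.5 ± 14.2 CPM in Ctrl and at 73.2, 58.7 and 28.8 CPM in M3-CKO, with overlapping groups (edgeR adjusted p = 0.17). Without M3-CKO replicate 3 Foxj1 was the only 1 of the 8 called (edgeR adjusted p = 0.026), where 13.7% of tested genes were called higher. Of the 8 log2 fold changes 5 were positive and 3 negative. Among the negative were Gmnc (-1.32, edgeR adjusted p = 0.43) and Mcidas (-1.10, edgeR adjusted p = 0.36), both chosen after their values were seen.

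Lists of cells from outside the surface epithelium, and of its tuft cells, neuroendocrine cells and ionocytes, were examined in the same way. The 7 of 8 alveolar type 2 genes with a row summed to 599.8 to 735.3 CPM in Ctrl and 582.9 to 676.7 CPM in M3-CKO, mostly Sftpd. Of the 6 tested, 4 log2 fold changes were positive and 2 negative. By edgeR 0 were called, and DESeq2 called 3 higher and 0 lower, where 6.05% and 4.31% of tested genes were called. The groups did not overlap in 5 of the 6, against 27.1% of tested genes. Within the list Sftpb, a surfactant protein that club cells also make, was at 3.71 CPM on average in Ctrl and at 4.54, 5.36 and 45.4 CPM in M3-CKO. Slc34a2 was at 44.1 CPM on average in Ctrl and at 11.5, 4.45 and 0.203 CPM in M3-CKO (both chosen after their values were seen). Of 10 gland genes 5 had a row and 3 were tested. Ltf, the iron-binding protein lactoferrin, was the only 1 of the 3 called, where 1.16% of all tested genes were called lower. It fell from 2651 ± 735.1 CPM to 942.3, 764.2 and 1059 CPM (edgeR adjusted p = 0.030). With M3-CKO replicate 3 left out, edgeR called 2 of 4 tested gland genes lower, against 11.3% of tested genes (Ltf at -1.64, adjusted p = 0.0027). Endothelial, mesenchymal, cartilage and erythrocyte genes with a row summed to at most 1.14, 12.7, 0.610 and 0.772 CPM in any library, and the immune genes to 457.0 to 1434 CPM, mostly Lyz2, with Ptprc, the general leukocyte gene, at or near 0. Tuft, neuroendocrine and ionocyte lists summed to 112.8 to 189.5, 3.66 to 11.8 and 17.3 to 40.1 CPM. The tuft sum was mostly Dclk1, and no other gene of that list exceeded 4.98 CPM (Pou2f3 in M3-CKO replicate 3). Cplx2 had the highest mean of the neuroendocrine list and Atp6v1c2 of the ionocyte list (these genes were named after their values were seen).

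The genes whose profile over the 6 libraries was most like each of the 7 were sought among 10586 tested genes with a mean of at least 5 CPM. Likeness was the root mean square difference between profiles of log2(CPM plus 0.5), each centred on its own mean, so 0 is an identical shape. Among the 7, the closest pairs were Cbr2 with Selenbp1 (0.33) and Scgb3a1 with Scgb3a2 (0.45), and Scgb1a1 was far from all others, at 1.52 from Hp and 2.21 to 2.80 from the rest. The nearest genes to Scgb1a1 were the complement protease C1s1 (0.93), the RING finger ubiquitin ligase Rnf183 (1.08), the cilia and flagella protein Cfap69 (1.08), the regenerating lectin Reg2 (1.11) and the surface sialomucin Cd34 (1.13). Nearest to Cbr2 were Ifitm1 (0.07), Dcaf11 (0.10) and Slc25a12 (0.10), and nearest to Selenbp1 were Lypd2 (0.15), Pccb (0.16) and Gnptg (0.18). Scgb3a2 had Scgb3a1 as its nearest gene of all, then Gpr55 (0.50) and Agmo (0.51). Nearest to Scgb3a1 were Kcnj13 (0.35), Klk10 (0.42) and Cybb (0.44), to Hp Klk14 (0.28), Steap1 (0.43) and Sprr2a3 (0.45), and to Chad Aox1 (0.10), Dennd6b (0.11) and Rsrp1 (0.12). These are descriptions over 6 libraries, and M3-CKO replicate 3 weighs heavily in them: without it none of the named neighbours was kept for any gene but Chad, which kept all 3.

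Promoter sequences were at hand for 4 of the 7 genes, Scgb3a1, Cbr2, Selenbp1 and Chad. The 250 bases before the annotated start are shown for the 3 whose libraries split most clearly, read 5′ to 3′ on the gene's strand from RefSeq on GRCm38.p6 (the counts were made on mm39). They are Scgb3a1 at chr11:49663345-49663594 on the plus strand, Cbr2 at chr11:120732022-120732271 on the minus strand and Selenbp1 at chr3:94932833-94933082 on the plus strand. Capitals mark matches, on either strand, to 6 motifs: CEBP (TTGCNNAA), FOX (TGTTTAC, and as its variant TGTTTGC), NKX2 (CTCAAG), STAT (TTCNNNGAA), AP-1 (TGANTCA) and the box motif TATAAA, called TATA below.
Scgb3a1: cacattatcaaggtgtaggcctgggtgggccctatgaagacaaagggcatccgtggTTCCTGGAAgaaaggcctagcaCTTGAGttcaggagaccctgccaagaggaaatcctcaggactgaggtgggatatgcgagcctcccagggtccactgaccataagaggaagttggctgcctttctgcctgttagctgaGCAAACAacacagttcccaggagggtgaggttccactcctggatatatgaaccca
Cbr2: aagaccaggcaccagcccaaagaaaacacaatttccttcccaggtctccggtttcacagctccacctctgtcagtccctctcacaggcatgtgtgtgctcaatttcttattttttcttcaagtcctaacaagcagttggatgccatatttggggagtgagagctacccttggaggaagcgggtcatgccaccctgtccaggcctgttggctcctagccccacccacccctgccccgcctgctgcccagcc
Selenbp1: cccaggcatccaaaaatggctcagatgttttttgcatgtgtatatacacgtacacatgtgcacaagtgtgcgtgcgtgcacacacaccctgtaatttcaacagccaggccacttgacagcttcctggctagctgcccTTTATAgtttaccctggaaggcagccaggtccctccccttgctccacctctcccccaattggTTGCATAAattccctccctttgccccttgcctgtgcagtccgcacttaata

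In the Scgb3a1 promoter the search found a STAT, an NKX2 and a FOX match, which begin 194, 172 and 55 bases before the start. In that of Selenbp1 it found a TATA match at 113 bases, on the reverse strand, and a CEBP match at 51 bases. The Cbr2 window held none of the 6. The Chad promoter, not shown, held FOX and TATA matches, so FOX was found in Scgb3a1 and Chad and TATA in Selenbp1 and Chad. Among 32851 promoters of this length, 9.56% held the CEBP motif, 7.29% FOX, 13.3% NKX2, 7.02% STAT, 6.75% AP-1 and 12.4% TATA. No match says only that these letters are not in this window, and a match is not a bound site.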

How the data were processed

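RNA-seq of 3 Ctrl and 3 M3-CKO organoid libraries was used. The deposited table holds raw counts per gene symbol, and per the submitters' processing notes the authors used Trim Galore, HISAT2 and featureCounts on mm39. The sources used here do not give versions, annotation, strand setting or how reads matching several places were treated, so counts of near-identical, overlapping or antisense genes are uncertain. From the counts, edgeR 4.0.16 in R 4.3.3 was run on the whole table (filterByExpr, 13528 genes kept; TMM factors 0.956 to 1.05; quasi-likelihood test, two-sided, no covariate; Benjamini-Hochberg adjusted p under 0.05). A standard error is the log2 fold change over the square root of F. DESeq2 1.42.0 and limma 3.58.1 (voom) were alternatives, as were other scalings and filters, a block for the replicate number, and leave-one-out fits. Exact permutation tests used scipy 1.17.1.

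The scripts were tested on simulated data, where edgeR called 12% of 2-fold, 84% of 4-fold, 94% of 8-fold and 100% of 16-fold changes. Of the calls there 7.64% were unchanged genes. The simulated libraries had no replicate that stood apart as M3-CKO replicate 3 does. A gene not called here may thus still have changed by 2-fold or by more. Hp (log2 fold change 2.71, SE 1.02) and Scgb3a2 (1.52, SE 1.02), for example, were not called. No label says whether replicates come from different animals or cultures. The p-values therefore weigh the group difference only against the spread of these libraries within their groups, and that spread may be technical. M3-CKO replicates 1 and 2 differed by more than sampling noise (chi-square 5.80 per degree of freedom) and were kept as 2. The 7 genes, the 19 other lists (194 of 253 genes had a row) and the motifs were chosen with earlier results of these data known. Named genes are Mettl3, the 7, up to 4 called members per list with the lowest adjusted p, 17 fixed genes, and the nearest genes in profile; others are marked. Of the fixed genes, Sftpc has no row. Intervals of counts and the 3-count floor cover counting error only.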

Additional observations from a re-analysis of the deposited data

How the results depend on the processing

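With other scalings, a stricter filter of a mean of 5 CPM, or the 20 most abundant genes left out (Cbr2 is 1 of these and has no value there, nor has Chad under the stricter filter), every log2 fold change of the 7 genes kept its direction and its side of the threshold. The number of called genes was 393, against 1402 with DESeq2, 740 without a low-count filter, 2624 without replicate 3 of both groups, 14 with M3-CKO replicates 1 and 2 summed, and 0 to 3483 when single libraries were left out (0 without Ctrl replicate 1 or 3 by edgeR, with 2378 and 1963 at an unadjusted p under 0.05). The number called among the 7 was 1, and was 0 with limma-voom and with the summed replicates, 3 without replicate 3 of both groups, and 0 to 3 with single libraries left out. The log2 fold change of Scgb1a1 lost its call with limma-voom (4.65) and with the summed replicates (5.63), and was 3.83 to 5.70 with single libraries left out. That of Scgb3a1 was -0.019 with limma-voom and -0.999 without replicate 3 of both groups (-1.21 to 1.32 with single libraries left out), and that of Scgb3a2 0.25 and -0.90 (-1.001 to 2.05). Without replicate 3 of both groups Cbr2 (-1.25) and Selenbp1 (-1.82) were called lower; with single libraries left out they were -1.27 to -0.45 and -1.79 to -0.26. Chad was -0.61 to 0.16 and Hp 0.40 to 3.20, and Hp was 0.15 without replicate 3 of both groups. The summed secretoglobins differed by -85.6 to 648.6 CPM. Beyond what the leaving out of libraries itself shows, the cause was not tested.

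Replicate numbers are shared between the groups, but same-numbered libraries did not deviate together from their group means (r -0.024, 0.019 and -0.107). With 3 libraries per group and M3-CKO replicate 3 apart from the others of its group, this does not exclude a pairing. The labels do not state one. With the replicate number as a block, 20 genes and 0 of the 7 were called, Scgb1a1 stood at 4.58 (edgeR adjusted p = 0.075) Scgb3a1 at -0.0004 and Scgb3a2 at 0.18.

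The 5 nearest genes to Scgb1a1 shared 2 with those found at a pseudocount of 2, and Chad's 3 shared 0. Chad, with 5 to 21 counts, is limited by depth.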
